A study of Homo sapiens with 5 samples.

Results

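The 10 genes described here encode chemokines, small secreted proteins that draw leukocytes toward the cells that release them. They were chosen by symbol from the 57905 genes with a count in the deposited files, and each symbol had 1 gene identifier. IL8 (now also written CXCL8), CXCL1, CXCL2, CXCL3, CXCL5 and CXCL6 attract mainly neutrophils, CCL2 and CCL7 attract monocytes, CCL20 attracts lymphocytes and dendritic cells, and CXCL12 is a homeostatic attractant of haematopoietic and neural progenitor cells. RNA was sequenced from SVG-10B1, an established line of SV40-transformed human fetal astroglial cells grown in medium with fetal calf serum. Edited cells carried the R132H substitution of IDH1, written R132H/WT, in clone 2 (1 library) and clone 6 (2 libraries), and were set against the wild-type line, labelled clone 1 (2 libraries). Because wild type has only 1 clone label, a difference that goes with the edit and a difference between clones cannot be told apart. The labels do not say that replicates came from separate cultures, so p-values measure the spread between these libraries, which may be technical.

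The neutrophil chemokines signal through CXCR1 and CXCR2, and share a glutamate-leucine-arginine motif ahead of the cysteines that name the family. Their genes, like those of CCL2 and CCL20, are switched on in many cell types by interleukin-1, tumour necrosis factor and bacterial products, acting mostly through NF-kB, AP-1 and C/EBP factors at the promoter, and their mRNAs are short-lived. Astrocytes release several of them during inflammation of the brain, while CXCL12 is made without such a stimulus and acts through CXCR4 and ACKR3.

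The clone 2 library and clone 6 replicate 1 lay closer together than labelled replicates did, and clone 6 replicate 2 stood apart. The median absolute difference over the 16471 tested genes was 0.10 on the log2 CPM scale between clone 2 and clone 6 replicate 1, 0.29 between the clone 6 replicates and 0.15 between the wild-type replicates. For genes with at least 50 reads in a pair, the median chi-square was 1.53 times its expected value between clone 2 and clone 6 replicate 1. It was 3.90 times between the wild-type replicates and 12.8 times between the clone 6 replicates. The counts of clone 2 and clone 6 replicate 1 thus differed by more than sampling noise and were kept as separate libraries. The ratio does not show whether these 2 libraries came from separate cells. Reads in genes came to between 13572114 and 16559077 in the edited libraries, against 21881726 and 17603317 in wild type. Levels are given in CPM, the count of a gene relative to the scaled library size. For this reason each chemokine is given library by library, and results that rest on clone 6 replicate 2 are given with and without it.

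Of the neutrophil chemokine genes, 6 lie in 1 cluster on chromosome 4, CCL2 and CCL7 lie on chromosome 17, CCL20 on chromosome 2 and CXCL12 on chromosome 10. RefSeq promoters (build GRCh38.p14) were at hand for 9 of the 10 genes, with CCL2 not analysed here. The 130 bases from 120 before the start site to 10 from it on are printed for the 6 clustered genes, because they share a motif match. CCL20 and CXCL12 are printed for contrast. Capitals mark matches to the NF-kB consensus or to the letters GGAATTTCC on the strand of the gene or its complement. The windows are chr4:73740449-73740578 on the plus strand (IL8), chr4:73869273-73869402 on the plus strand (CXCL1), chr4:74099186-74099315 on the minus strand (CXCL2), chr4:74038680-74038809 on the minus strand (CXCL3), chr4:73836558-73836687 on the plus strand (CXCL6), chr4:73998668-73998797 on the minus strand (CXCL5), chr2:227813722-227813851 on the plus strand (CCL20) and chr10:44385088-44385217 on the minus strand (CXCL12).
IL8: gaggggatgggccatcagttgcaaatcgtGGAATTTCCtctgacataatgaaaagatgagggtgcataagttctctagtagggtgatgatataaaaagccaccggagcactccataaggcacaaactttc
CXCL1: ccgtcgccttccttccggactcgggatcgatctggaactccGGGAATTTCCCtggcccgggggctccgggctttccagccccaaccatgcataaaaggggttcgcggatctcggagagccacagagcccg
CXCL2: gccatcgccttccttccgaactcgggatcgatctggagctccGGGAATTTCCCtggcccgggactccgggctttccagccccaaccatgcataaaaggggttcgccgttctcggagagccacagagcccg
CXCL3: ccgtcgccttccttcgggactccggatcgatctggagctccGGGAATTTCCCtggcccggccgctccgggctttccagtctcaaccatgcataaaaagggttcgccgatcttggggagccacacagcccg
CXCL6: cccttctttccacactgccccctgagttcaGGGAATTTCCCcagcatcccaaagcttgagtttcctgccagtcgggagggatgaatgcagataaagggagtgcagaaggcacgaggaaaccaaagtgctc
CXCL5: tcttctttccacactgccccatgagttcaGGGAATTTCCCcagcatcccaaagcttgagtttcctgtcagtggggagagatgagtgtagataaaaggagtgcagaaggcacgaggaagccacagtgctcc
CCL20: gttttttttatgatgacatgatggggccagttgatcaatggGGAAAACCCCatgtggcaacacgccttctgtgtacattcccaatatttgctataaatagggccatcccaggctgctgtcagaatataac
CXCL12: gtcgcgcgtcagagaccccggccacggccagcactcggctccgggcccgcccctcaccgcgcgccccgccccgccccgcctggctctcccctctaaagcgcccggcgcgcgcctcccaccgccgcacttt

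All 6 clustered promoters held GGAATTTCC, at 78 bases before the start in CXCL1 and CXCL3, 77 in CXCL2, 89 in CXCL6, 90 in CXCL5 and 91 in IL8. These letters were chosen after the sequences were seen, and 162 of all 35116 RefSeq promoters of the same length (0.461%) held them on either strand. The NF-kB consensus, searched on both strands, matched in CXCL1, CXCL2, CXCL3, CXCL5, CXCL6 and CCL20, against 11.3% of all promoters, and in the clustered genes its matches overlap GGAATTTCC. The AP-1 letters TGANTCA were found in IL8 (137 bases before the start, outside the printed window) and CCL7, against 7.71% of all promoters, and TATAAA in IL8, CCL7 and CCL20, against 11.5%. The printed windows of CXCL1 and CXCL2 were 93.9% identical, those of CXCL1 and CXCL3 90.8% and those of CXCL5 and CXCL6 90.8%, whereas IL8 and CXCL1 had 43.4%. A match describes these letters only, and the counts carry no measurement of factor binding.

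Of the 10 genes, 7 passed the filter on low counts, and 6 of these 7 were called lower in the edited libraries (adjusted p below 0.05 with edgeR), where 9.49% of all 16471 tested genes were called lower and 7.64% higher. The tested genes that every edited library had below both wild-type libraries were the same 6, against 25.3% of all tested genes. CCL2, CCL20 and CXCL6 passed the filter through the wild-type libraries only, where they were high, so their count is no support for a direction, while IL8, CXCL1, CXCL2 and CXCL3 also reached the filter's level in an edited library. That level is 0.604 CPM on unscaled library sizes, on which no edited library reached it for CXCL6. CCL7, CXCL5 and CXCL12 did not pass. Without wild-type replicate 1 the count called was 3, where 2.06% of genes were called lower, and without clone 6 replicate 2 it was 7, where 19.7% of genes were called lower. Summed over the 10 genes clone 2 had 4.19 CPM, clone 6 replicate 1 had 4.28 CPM and clone 6 replicate 2 had 55.7 CPM, against 606 and 545 CPM in wild-type replicates 1 and 2. Every edited library was thus far below both wild-type libraries in the sum, with clone 6 replicate 2 the highest of the edited ones. In bulk RNA, fewer cells making a chemokine and less RNA per cell cannot be told apart.

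**Figure D1:**
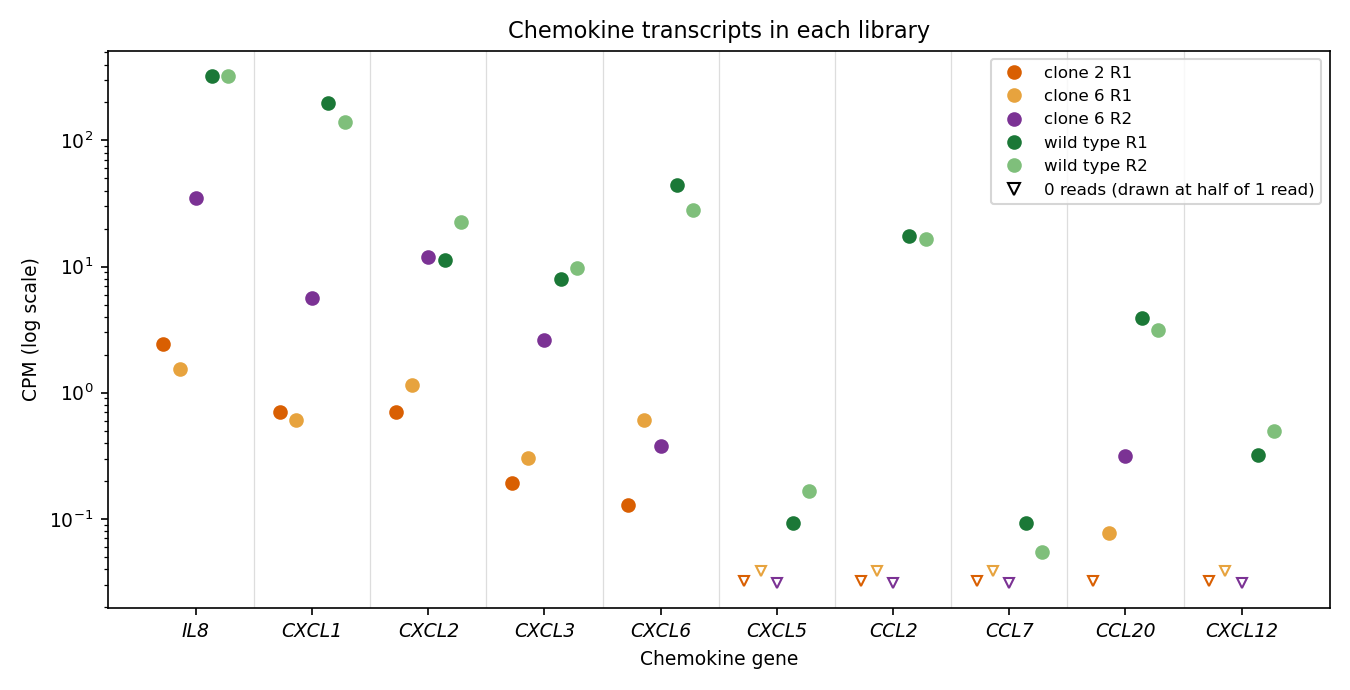
Level of each chemokine gene in each of the 5 libraries, as CPM on a log scale, with open triangles for 0 reads. IL8 lies near 324 CPM in both wild-type libraries and at 35.0 CPM or lower in the edited ones, and CXCL2 is the gene whose clone 6 replicate 2 value (11.8 CPM) falls between the wild-type values.

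IL8 (ENSG00000169429), the main attractant of human neutrophils, had the highest level of the set in wild type. It had 2.45 CPM (38 reads) in clone 2, 1.53 CPM (20 reads) in clone 6 replicate 1 and 35.0 CPM (560 reads) in clone 6 replicate 2, against 324 CPM in each wild-type replicate (7015 and 5896 reads). The edited libraries, at a mean of 13.0 ± 19.1 CPM (SD, n = 3), were spread widely, while the wild-type libraries had an SD of 0.129 CPM (n = 2). In edited libraries IL8 fell by 4.62 on the log2 scale, with an SE of 1.09 and an adjusted p of 0.0309. IL8 was not called when any of 4 libraries was left out, with an adjusted p of 0.158 leaving out wild-type replicate 1, 0.142 wild-type replicate 2, 0.0649 clone 2 and 0.0566 clone 6 replicate 1. Without clone 6 replicate 2 the log2 fold change was -7.33, and with clone 6 replicate 2 as the only edited library it was -3.21.

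CXCL1 (ENSG00000163739), a CXCR2 ligand first isolated from melanoma cells, overlapped IL8 in level per length in wild type. It had 0.709 CPM (11 reads) in clone 2, 0.612 CPM (8 reads) in clone 6 replicate 1 and 5.62 CPM (90 reads) in clone 6 replicate 2, against 196 CPM (4255 reads) and 140.5 CPM (2558 reads) in wild type. No edited value came near a wild-type value, and clone 6 replicate 2 was again the highest of the edited libraries. CXCL1 averaged 2.31 ± 2.86 CPM in edited libraries (SD, n = 3) and 168 ± 39.5 CPM in wild type (SD, n = 2). Its log2 fold change was -6.13, with an SE of 0.691 and an adjusted p of 0.00261. The value was -7.99 without clone 6 replicate 2 and -4.90 with it as the only edited library, and the call was kept in all 13 alternative settings.

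CXCL6 (ENSG00000124875), a ligand of both CXCR1 and CXCR2, was similarly low in all edited libraries. It had 0.129 CPM (2 reads) in clone 2, 0.612 CPM (8 reads) in clone 6 replicate 1 and 0.375 CPM (6 reads) in clone 6 replicate 2, against 44.2 CPM (958 reads) and 28.2 CPM (514 reads) in wild type. Here clone 6 replicate 2 lay between the other edited libraries rather than above them. CXCL6 averaged 0.372 ± 0.242 CPM in edited libraries (SD, n = 3) and 36.2 ± 11.3 CPM in wild type (SD, n = 2). Its log2 fold change was -6.62, with an SE of 0.387 and an adjusted p of 0.000292. It kept its call in all 13 settings, with log2 fold changes between -7.12 and -6.21.

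CXCL2 (ENSG00000081041), which binds CXCR2, was the tested chemokine without a call. It had 0.709 CPM (11 reads) in clone 2, 1.15 CPM (15 reads) in clone 6 replicate 1 and 11.8 CPM (189 reads) in clone 6 replicate 2, against 11.4 CPM (246 reads) and 22.5 CPM (409 reads) in wild type. Clone 6 replicate 2 therefore exceeded wild-type replicate 1, and the other edited libraries were far below both. Its log2 fold change was -1.86, with an SE of 0.948 and an adjusted p of 0.226. Without clone 6 replicate 2 it was -4.21 (adjusted p = 3.45e-05), and with that library as the only edited one it was -0.51 (adjusted p = 0.223). CXCL2 was also called lower with no filter on low counts. That fit gave nearly the same log2 fold change (-1.87) with a much smaller SE (0.204). The same fit called IL6 lower, although clone 6 replicate 2 exceeded both wild-type libraries in that gene. Its calls are thus no support for a direction.

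CXCL3 (ENSG00000163734), the third of these closely related CXCR2 ligands, had a lower level and a similar order of libraries. It had 0.193 CPM (3 reads) in clone 2, 0.306 CPM (4 reads) in clone 6 replicate 1 and 2.62 CPM (42 reads) in clone 6 replicate 2, against 7.98 CPM (173 reads) and 9.67 CPM (176 reads) in wild type. The groups did not overlap, and the clone 2 count gave 2.21% of the wild-type level with a 95% counting interval of 0.453 to 6.51%. On the log2 scale CXCL3 fell by 3.02 with an SE of 0.739 (adjusted p = 0.0347), but it was not called by DESeq2 (adjusted p = 0.0896), nor when 1 of 4 libraries was left out, with an adjusted p of 0.173 leaving out wild-type replicate 1, 0.188 wild-type replicate 2, 0.0675 clone 2 and 0.0856 clone 6 replicate 1. Its value was -5.14 without clone 6 replicate 2. Of the 50-base windows of the longest mRNA, CXCL1 shared 5.73% with CXCL2 and 0.573% with CXCL3, and CXCL3 shared 5.26% with CXCL2, so the division of reads among these genes is uncertain there.

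CXCL5 (ENSG00000163735), a CXCR2 ligand next to CXCL3 in the cluster, was close to absent from these cells. It had 0 reads in each edited library, against 2 and 3 reads in wild type. Its printed promoter window is 90.8% identical to that of CXCL6, which had 958 and 514 reads in wild type. The part of the promoter in these levels was not tested. At or under the floor of 3 reads per library no fold is given.

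CCL2 (ENSG00000108691), the main attractant of CCR2-bearing monocytes, had 0 reads in clone 2 and in both clone 6 libraries, against 17.4 CPM (378 reads) and 16.6 CPM (303 reads) in wild type. It is the tested chemokine with no read in any edited library, clone 6 replicate 2 included. Against the floor of 3 reads in the edited library with the highest floor, CCL2 was at least 74.3-fold lower than its wild-type mean of 17.05 ± 0.564 CPM (SD, n = 2; adjusted p = 0.000395). The call was kept in all 13 settings. CCL7 (ENSG00000108688), a related ligand of CCR2, had 0 reads in each edited library, against 2 and 1 reads in wild type, which allows no fold.

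CCL20 (ENSG00000115009), the ligand of CCR6, had 0 reads in clone 2, 1 read (0.0765 CPM) in clone 6 replicate 1 and 5 reads (0.312 CPM) in clone 6 replicate 2, against 3.88 CPM (84 reads) and 3.13 CPM (57 reads) in wild type. All edited values were below the wild-type values, at a mean of 0.130 ± 0.163 CPM (SD, n = 3) against 3.50 ± 0.527 CPM (SD, n = 2). CCL20 had a log2 fold change of -4.64 with an SE of 0.612 (adjusted p = 0.00451), which was -6.39 without clone 6 replicate 2, and it was not called without wild-type replicate 1 (adjusted p = 0.0628). CXCL12 (ENSG00000107562) had 0 reads in the edited libraries, against 7 reads (0.323 CPM) and 9 reads (0.494 CPM) in wild type, at least 1.78-fold lower. It did not pass the filter. With no filter on low counts 8 of the 10 genes were called lower, where 7.36% of 32281 genes were. The added genes were CXCL2 and CXCL12. The SE of CXCL2 was 0.204 in that fit, against 0.948 with the filter, so this count is no support for a direction.

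Per kilobase of annotated exon, the order in clone 6 replicate 2 was IL8 (15.4 CPM per kb), CXCL2 (7.87), CXCL1 (4.34), CXCL3 (1.18), CCL20 (0.196) and CXCL6 (0.172). In wild type the order was IL8 (142 CPM per kb), CXCL1 (152 and 108 in replicates 1 and 2), CXCL6 (16.6), CXCL2 (11.3), CCL2 (8.58), CXCL3 (3.98) and CCL20 (2.20), with CCL7, CXCL12 and CXCL5 at or below 0.0853. Neighbours in this order whose wild-type replicates overlapped were IL8 with CXCL1, CXCL6 with CXCL2, CXCL2 with CCL2, CCL7 with CXCL12 and CXCL12 with CXCL5. CXCL2 thus stood below CXCL1 and CXCL6 in mean level in wild type, and above both in clone 6 replicate 2.

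Each edited library was then set against the pooled wild-type reads with exact 95% counting intervals, which cover counting error only. In clone 2 the remaining level was 0.756% of wild type for IL8 (0.535 to 1.04), 0.415% for CXCL1 (0.207 to 0.742), 0.349% for CXCL6 (0.0422 to 1.26) and 4.31% for CXCL2 (2.14 to 7.77). In clone 6 replicate 1 it was 0.472% for IL8 (0.288 to 0.730), 0.358% for CXCL1 (0.155 to 0.706), 1.66% for CXCL6 (0.714 to 3.27) and 6.98% for CXCL2 (3.89 to 11.6). CXCL2 kept a larger fraction than IL8 or CXCL1 in these libraries, with intervals that did not meet. In clone 6 replicate 2 it was 10.8% for IL8 (9.91 to 11.8), 3.29% for CXCL1 (2.64 to 4.05), 30.0% for CXCL3 (21.2 to 41.4), 71.9% for CXCL2 (60.8 to 84.6), 8.83% for CCL20 (2.82 to 21.1) and 1.02% for CXCL6 (0.372 to 2.21). That library thus spanned nearly the whole range between the other edited libraries and wild type, depending on the gene.

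**Figure D2:**
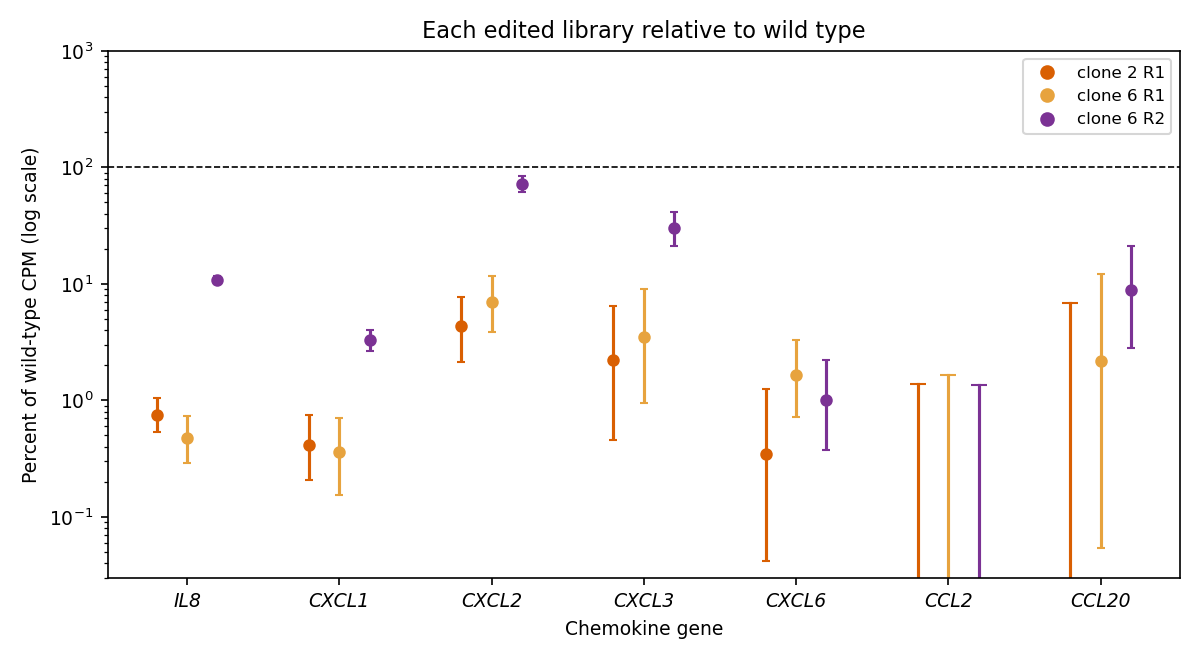
Level in each edited library as a percentage of the pooled wild-type CPM, on a log scale, for the 7 tested chemokine genes. Points are ratios and bars exact 95% counting intervals, bars without a point mark 0 reads, and the dashed line is the wild-type level. Clone 6 replicate 2 ranges from 1.02% for CXCL6 to 71.9% for CXCL2.

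Between the libraries of clone 6, replicate 2 had 22.9 times the IL8 level of replicate 1 (95% counting interval 14.7 to 37.7), 10.3 times for CXCL2 (6.08 to 18.7), 9.19 times for CXCL1 (4.47 to 21.9) and 8.57 times for CXCL3 (3.11 to 32.9). For CXCL6 the ratio was 0.612 (0.175 to 2.01) and for CCL20 4.08 (0.457 to 193), so neither differed beyond counting error. CCL2 had 0 reads in both. The difference between the replicates of 1 clone was therefore present for the CXCL1, CXCL2, CXCL3 and IL8 transcripts and not detectable for CXCL6, CCL20 and CCL2 at this depth. These intervals compare libraries, not conditions.

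By clone, clone 2 had 4 of the 7 tested chemokines called lower against wild type, where 2.16% of tested genes were, and clone 6 also had 4 of the 7, where 5.11% were. In both clones these were CCL2, CCL20, CXCL1 and CXCL6, and both comparisons use the same wild-type libraries. Of these, CCL2, CCL20 and CXCL6 passed the filter through the wild-type libraries only, so their calls are no support for a direction. CXCL1 had log2 fold changes of -7.88 in clone 2 (adjusted p = 0.0209) and -5.69 in clone 6 (adjusted p = 0.00690). CXCL6 had -8.06 in clone 2 (adjusted p = 0.00540) and -6.21 in clone 6 (adjusted p = 0.00112). IL8, with -7.04 in clone 2 (adjusted p = 0.0860) and -4.13 in clone 6 (adjusted p = 0.0579), was not called in either, nor were CXCL2 and CXCL3. Clone 2 has 1 library, whose spread was taken to be that of the other groups. Its count was 7 in the fits lacking clone 6 replicate 1 (10.5% of all tested genes lower) or clone 6 replicate 2 (12.2% lower). That of clone 6 was 6 in the fit lacking its replicate 1 (15.1% lower) and 7 in the fit lacking its replicate 2 (12.0% lower). The counts carry no base calls and cannot show which clone a library came from, so values by clone rest on the labels, also for the clone 6 replicate 1 library that nearly equals clone 2.

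The direct comparison of clone 6 with clone 2 called 0 of the 7 chemokines, and 0% of all tested genes. With edgeR, 0 of them had an unadjusted p below 0.05, and DESeq2 also called 0. Without clone 6 replicate 1 the same comparison called 4, namely CXCL2 (4.04 on the log2 scale, adjusted p = 0.00905), IL8 (3.83), CXCL3 (3.71) and CXCL1 (2.97), beside 5.33% of all genes tested. That fit sets clone 6 replicate 2 alone against clone 2 and leaves the spread to the wild-type pair.

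The make-up of the reads of the 6 clustered genes also differed. CXCL1 made up 16.9% of 65 such reads in clone 2, 14.5% of 55 in clone 6 replicate 1 and 10.1% of 887 in clone 6 replicate 2 (95% Clopper-Pearson interval 8.24 to 12.3), against 33.6 and 26.8% of 12649 and 9556 in wild type. CXCL2 made up 16.9, 27.3 and 21.3% (18.7 to 24.1 in clone 6 replicate 2) in the same edited libraries, against 1.94 and 4.28% in wild type. The shares of CXCL2 were thus higher in all edited libraries and those of CXCL1 lower than in wild type, although the interval of CXCL1 in clone 2 (8.76 to 28.3) met that of wild-type replicate 2 (25.9 to 27.7), as did that of clone 6 replicate 1 (6.50 to 26.7). IL8 made up 58.5, 36.4 and 63.1% in the edited libraries, against 55.5 and 61.7% in wild type, so its share in clone 2 lay within the wild-type range. CXCL6 made up 3.08% in clone 2 (0.375 to 10.7), 14.5% in clone 6 replicate 1 and 0.676% in clone 6 replicate 2 (0.249 to 1.47), against 7.57 and 5.38% in wild type, so its edited shares lay on both sides of wild type. The wild-type replicates differed as well, with CXCL2 in replicate 2 at 1.98 times and CXCL6 at 0.639 times the CPM of replicate 1, while IL8 was at 1.00 times.

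**Figure D3:**
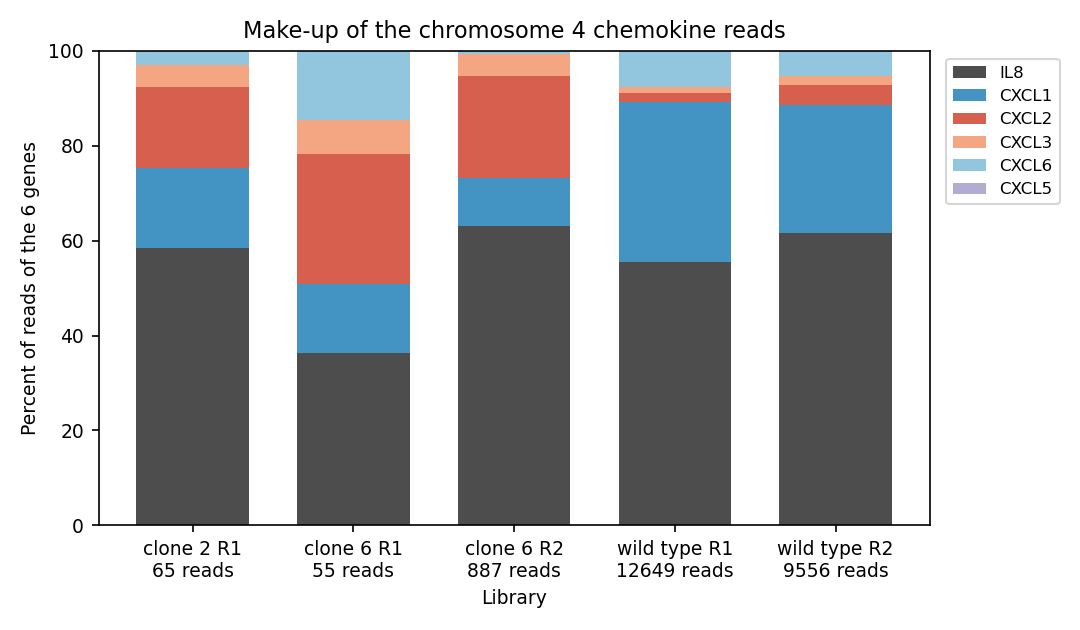
Share of each of the 6 chromosome 4 chemokine genes among their summed reads, in percent, for each library, with the number of reads under each bar. CXCL2 takes 16.9 to 27.3% in the edited libraries and 1.94 to 4.28% in wild type.

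Other genes around the members were looked up within 500 kb in RefSeq, by order only. Around the chromosome 4 cluster, 3 of 12 other protein-coding genes were tested and 0 were called with edgeR. AFP, the alpha-fetoprotein gene, came nearest to a call with 2, 0 and 1 reads in the edited libraries, against 9 and 12 reads in wild type (log2 fold change -2.86, adjusted p = 0.0516). ANKRD17, an ankyrin repeat protein gene at 1 end, had 163, 160 and 150 CPM in the edited libraries, against 144 and 141 CPM in wild type (log2 fold change 0.15, adjusted p = 0.289). MTHFD2L, a mitochondrial folate enzyme gene beside CXCL2, had 6.06 and 6.81 CPM in clone 2 and clone 6 replicate 1 and 10.1 CPM in clone 6 replicate 2, against 11.0 and 12.0 CPM in wild type (-0.58, adjusted p = 0.136). The platelet chemokine genes PF4, PF4V1 and PPBP, which lie between the members, had 0 reads in every library. The 6 other genes around CCL2 and CCL7, among them CCL8, CCL11, CCL13 and CCL1, also had 0 reads throughout. Of 15 genes around CCL20, 4 were tested. DAW1 was not called at -1.57 (adjusted p = 0.0528). The mitochondrial fission gene MFF rose, with a log2 fold change of 0.39 and an adjusted p of 0.0261, and the thiamine transporter gene SLC19A3 fell by 3.18 (adjusted p = 0.0210). Both were no longer called without either wild-type replicate or without clone 6 replicate 1, with adjusted p-values up to 0.202. MFF also lost it without clone 2 (adjusted p = 0.0770). SLC19A3 had 0, 2 and 4 reads in the edited libraries, against 28 and 23 reads in wild type. SLC19A3, DAW1 and AFP passed the filter through the wild-type libraries only, so their values are no support for a direction.

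**Figure D4:**
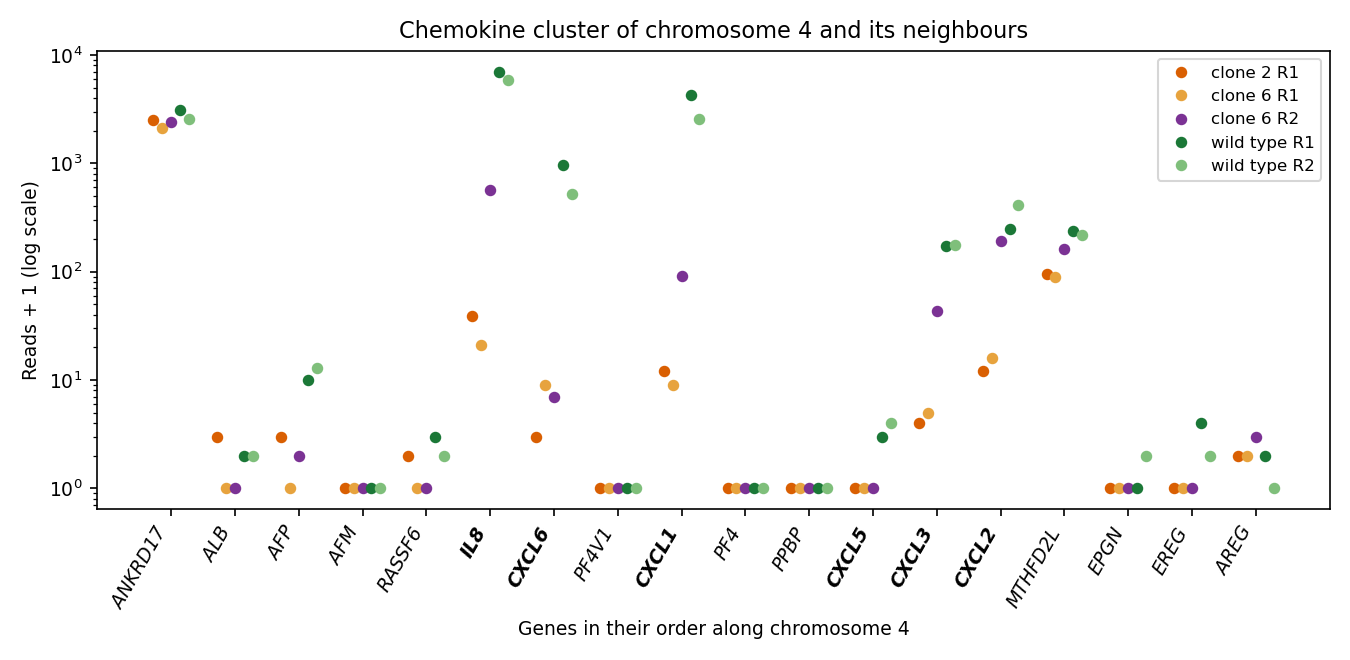
Reads plus 1 on a log scale for the protein-coding genes of the chromosome 4 cluster and its surroundings, in gene order (not to distance), with members in bold. IL8 has 7015 and 5896 reads in wild type and ANKRD17 is alike in all libraries, while PF4V1, PF4 and PPBP between the members are at 0 reads.

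Genes of the same pathway were counted from lists of known members. Of 34 other chemokine genes, 25 had 0 reads in every library and 2 were tested, CXCL16 and CCL26, with 0 called. CXCL16, a membrane-bound ligand of CXCR6, had 4.51, 5.81 and 4.62 CPM in the edited libraries, against 6.00 and 4.29 CPM in wild type (log2 fold change -0.05, adjusted p = 0.892). Receptors of the members were near absent, with 0 reads of CXCR1, CXCR2, CCR2 and CCR6 in any library, 1 read of CXCR4 and 1 read of CCR1 in clone 2, and 2 reads of CCR1 in each wild-type library. The exception was ACKR3, the scavenging receptor of CXCL12, with 11.0, 9.03 and 6.81 CPM in the edited libraries, against 6.00 and 5.33 CPM in wild type (0.66, adjusted p = 0.0991, and 0.00306 without clone 6 replicate 2). Of 23 receptor genes 5 were tested and 0 called.

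Upstream of the chemokines, 7 of 21 tested cytokine, receptor and adaptor genes were called lower and 2 higher. Of all tested genes, 9.49% were called lower and 7.64% higher. The median log2 fold change of these 21 was -0.20, beside 0.02 over all tested genes. IL1R1, the signalling receptor of interleukin-1, had 2.13, 1.68 and 1.94 CPM in the edited libraries, against 28.1 and 20.6 CPM in wild type (-3.66, adjusted p = 0.000269). All edited libraries were alike in it, clone 6 replicate 2 included. IL1B, which encodes interleukin-1 beta, had 18.5, 15.8 and 85.7 CPM in clone 2 and clone 6 replicates 1 and 2, against 461 and 394 CPM in wild type (-3.41, adjusted p = 0.0196, and 0.129 and 0.0996 without wild-type replicates 1 and 2). TLR2, a receptor of bacterial lipopeptides, had 0 reads in the edited libraries, against 16 and 13 reads in wild type (adjusted p = 0.0170, and 0.120 without wild-type replicate 2). The tumour necrosis factor receptor gene TNFRSF1B fell by 2.88 (adjusted p = 0.00544, and 0.0747 without wild-type replicate 1). TLR2 and TNFRSF1B (3, 7 and 6 reads in the edited libraries) passed the filter through the wild-type libraries only. Their calls are thus no support for a direction. The genes called higher, named after their values were seen, were that of the lipopolysaccharide receptor TLR4 (2.23, adjusted p = 0.00220) and of the adaptor kinase IRAK1 (0.56, adjusted p = 0.0341). TLR4 kept its call without any 1 library. IRAK1 kept it only without clone 6 replicate 2, and had adjusted p-values of 0.237 and 0.0702 in fits lacking the first or the second wild-type replicate, 0.0695 lacking clone 2 and 0.0770 lacking clone 6 replicate 1.

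Some transcripts outside the chemokines exceeded both wild-type libraries in clone 6 replicate 2, which none of the chemokines did, and were picked after their values were seen. IL1A, the gene of interleukin-1 alpha, had 4.51, 5.05 and 49.3 CPM in clone 2 and clone 6 replicates 1 and 2, against 43.9 and 35.3 CPM in wild type (-1.005, adjusted p = 0.502). IL6 had 4.45, 4.51 and 66.5 CPM in the edited libraries, against 34.3 and 58.1 CPM in wild type (-0.86, adjusted p = 0.618). In both, clone 6 replicate 2 exceeded both wild-type libraries while the other edited libraries were far below. The NF-kB cofactor gene NFKBIZ (22.2, 21.3 and 102 CPM, against 71.1 and 79.4 CPM in wild type) and the transcription factor gene CEBPB (39.4, 51.1 and 174 CPM, against 63.3 and 56.0 CPM) were also highest in that library.

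Among 24 tested transcription factor and feedback genes of the NF-kB, AP-1 and C/EBP families, 13 were called lower and 0 higher. Of all tested genes, 9.49% were called lower and 7.64% higher. The median log2 fold change of the 24 was -0.76. The deubiquitinase gene TNFAIP3, a target and inhibitor of NF-kB, had 5.86, 4.90 and 10.7 CPM in the edited libraries, against 71.8 and 52.7 CPM in wild type (-3.11, adjusted p = 0.00184). The inhibitor gene NFKBIA (-2.69), the ubiquitin ligase gene BIRC3 (-2.29) and the cofactor gene BCL3 (-1.73) were also called lower. BCL3 was not called without clone 2 (adjusted p = 0.0963), nor without the first (0.265) or the second (0.0738) wild-type replicate. Of 9 genes for mRNA decay, 1 was called lower and 0 higher, beside 9.49% of all tested genes called lower. The called gene was the endonuclease gene ZC3H12A, whose protein degrades cytokine mRNAs. It had 4.12, 3.90 and 4.12 CPM in the edited libraries, against 26.3 and 21.2 CPM in wild type (-2.55, adjusted p = 0.000302). Of 7 tested leukocyte growth and adhesion factors, 5 were called lower and 0 higher, beside 9.49% of all tested genes called lower. Their median log2 fold change was -1.27. CSF3 and CSF2 passed the filter through the wild-type libraries only, so their calls are no support for a direction. CSF3, the granulocyte growth factor, had 1, 0 and 4 reads in the edited libraries, against 1356 and 554 reads in wild type (-8.61, adjusted p = 0.000399), and CSF2 had 0, 0 and 7 reads, against 136 and 55 reads (-4.84, adjusted p = 0.0105). CSF2 was not called with DESeq2 (adjusted p = 0.118) or in the fit lacking wild-type replicate 1 (adjusted p = 0.114). The adhesion molecule gene VCAM1 fell by 2.43 (adjusted p = 0.0872 and 0.0540 without wild-type replicates 1 and 2), and the cytokine gene LIF fell by 1.27 (adjusted p = 0.0901 without wild-type replicate 2). Counts of lower calls moved with the wild-type libraries. Without wild-type replicate 1, where 2.06% of all genes were called lower, they were 2 upstream genes, 4 transcription factor and feedback genes and 2 growth and adhesion factors, and without wild-type replicate 2 (2.88% of all genes) they were 3, 5 and 2. Without clone 2 (5.57% of all genes), or without clone 6 replicate 1 (5.43%), 8 transcription factor and feedback genes were called lower.

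**Figure D5:**
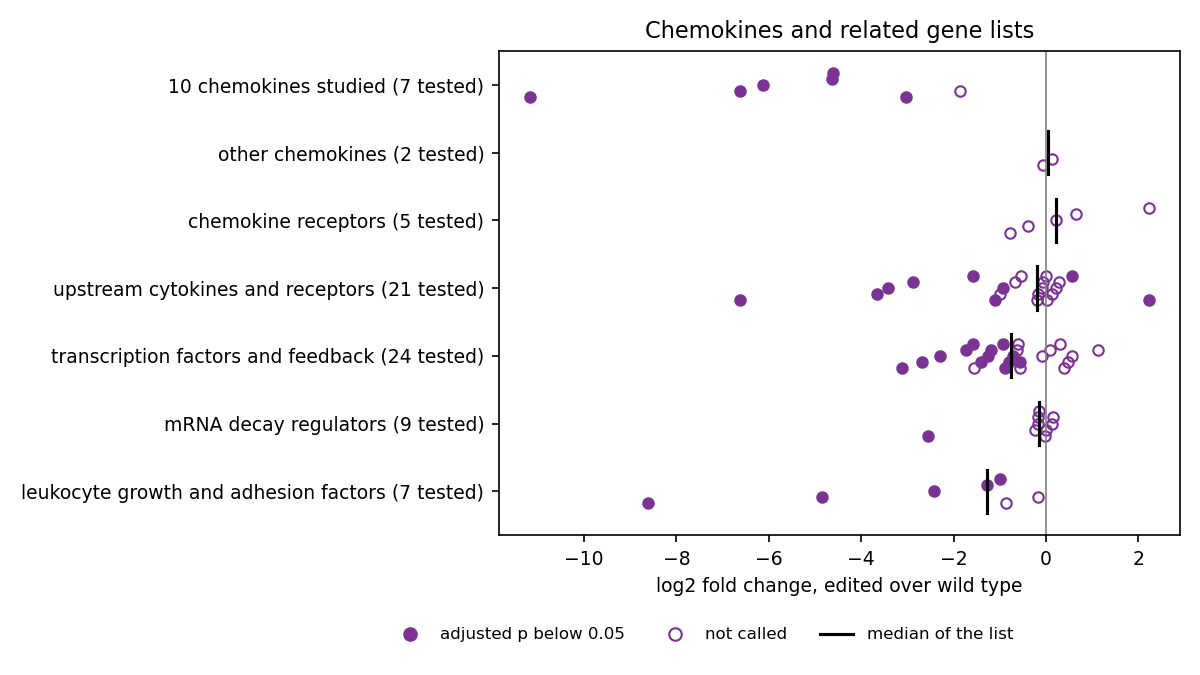
Log2 fold change, edited over wild type, of each tested gene in the 10 chemokines and in 6 lists of related genes, filled where the adjusted p was below 0.05, with a line at the median of each related list. The filled points of the chemokines lie between -11.17 (CCL2, a fitted value that is no bound) and -3.02 (CXCL3), and the other chemokine and receptor lists hold no filled point.

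The genes whose profile over the 5 libraries was most like the median of the tested chemokines, among 11208 genes whose average log2 CPM was 2 or more, were C3, TRPC4, LCP1, TGM2 and AMOT. Likeness was the root mean square difference of log2 CPM centred on wild type, and was 0.75 for C3 and 1.06 for AMOT. C3, the central complement component, had 1.48, 1.99 and 6.37 CPM in the edited libraries, against 218 and 113 CPM in wild type. LCP1, an actin-bundling protein gene, had 2.77, 3.44 and 8.24 CPM, against 90.2 and 93.7 CPM in wild type. In both, clone 6 replicate 2 was the highest edited library. The chemokine median was taken on the log2 scale from wild type. It lay at -6.98 for clone 2, and at -5.60 and -3.21 for clone 6 replicates 1 and 2. The alike genes were picked by closeness to this median, so a shared order of libraries follows from the choice. The median takes in CCL2, CCL20 and CXCL6, which passed the filter through the wild-type libraries only. CCL2 had 0 reads in every edited library, and the highest edited library for CXCL6 was clone 6 replicate 1.

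Markers of cell types were read beside these results. Of 12 astrocyte markers, AQP4 and FABP7 had 0 reads in every library, S100B had 1 read in clone 2 and 0 elsewhere, and GFAP had 5 to 9 reads per library. ALDH1L1 had 0, 1 and 0 reads in clone 2 and clone 6 replicates 1 and 2, against 4 and 6 reads in wild type. In the same order NES had 5, 2 and 0 reads, against 6 and 3, and SLC1A2 had 4, 2 and 3 reads, against 5 and 7. Among markers with more reads, SLC1A3 had 6.89 to 9.87 CPM in the edited libraries, against 7.69 and 8.08 CPM in wild type. CD44 had 252 to 290.3 CPM, against 304 and 318 CPM in wild type. The GJA1 transcript rose. The summed level was 1218 to 1484 CPM in the edited libraries, against 1073 to 1158 CPM in wild type. Most of it came from VIM, GJA1 and CD44. Of 13 leukocyte markers, 5 had 0 reads in every library and PTPRC had at most 1 read in any. The summed level was 0.874 to 1.48 CPM in the edited libraries, against 1.87 to 2.54 CPM in wild type. CSF1R made up most of that sum, with 0.966, 1.15 and 0.687 CPM in the edited libraries, against 2.22 and 1.48 CPM in wild type. It was the 1 marker tested and was not called (adjusted p = 0.0925 with edgeR). Of 6 tested fibroblast or pericyte markers, COL3A1, ACTA2 and PDGFRB were called lower and 0 were called higher with edgeR. Of all tested genes, 9.49% were called lower and 7.64% higher. The summed level of this list was 544 to 1719 CPM in the edited libraries, against 1881 to 2137 CPM in wild type. PDGFRA, which goes the other way, had 5.28, 5.51 and 1.499 CPM in the edited libraries, against 0.969 and 0.989 CPM in wild type (log2 fold change 2.05, adjusted p = 0.0558, and 0.00411 with DESeq2). Leaving out wild-type replicate 1, COL3A1 (adjusted p = 0.0705), ACTA2 (0.239) and PDGFRB (0.260) were not called. Of 5 endothelial markers 4 were found, with a summed level of 7.87 to 11.4 CPM, against 16.98 to 20.9 CPM in wild type. TEK, 1 of 2 tested, was called lower, beside 9.49% of all tested genes, but was not without wild-type replicate 1. VWF, the other tested marker, went the other way without a call (log2 fold change 0.62, adjusted p = 0.411 with edgeR). The part of these markers in the chemokine values was not tested.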

How the data were processed

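Per the labels' protocols, 5 samples of SVG-10B1 RNA were run on Illumina HiSeq sequencers. Trimmomatic, STAR, HTSeq and the build hg19 (GRCh37) are listed in the submitters' processing notes, with no roles or versions. In the sources used here, neither the annotation nor the strand setting is given. Raw counts per gene were deposited by the authors as whole numbers; 5772 of 63677 genes had no value, and 0 rows named no gene. The chemokines and lists were chosen with earlier results of these data known.

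Counts were tested in R 4.3.3 with edgeR 4.0.16 (TMM scaling, filterByExpr over the 3 labelled groups, quasi-likelihood F test) on 16471 genes, with Benjamini-Hochberg adjustment over all of them. Residual degrees of freedom were 3 for the genotype and 2 for the fit by clone. The procedure was tested on simulated data. CPM use TMM-scaled library sizes; log2 CPM a prior count of 2. A gene at 0 has a floor of 3 reads per library, 0.187 to 0.229 CPM in the edited libraries. Counting intervals are exact at 95%. DESeq2 1.42.0 was an alternative. Exon lengths are from GENCODE 29 (GRCh38). Named genes were the 10 chemokines, their receptors, up to 4 called genes of each list with the largest change, the 5 most alike profiles and the neighbours; others were picked after their values were seen.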

Additional observations from a re-analysis of the deposited data

How the results depend on the processing

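Over 13 alternative settings of the comparison of edited with wild-type libraries, 91 values of the 7 tested chemokines were recomputed, of which 76 kept their side of the threshold, 12 lost a call, 3 gained one and 0 changed direction. CCL2, CXCL1 and CXCL6 kept their calls in all 13. CXCL3 lost its call in 6 settings (adjusted p up to 0.188, with 0.0896 by DESeq2 and 0.0873 with clone 2 and clone 6 replicate 1 summed), IL8 in 5 (up to 0.158, with 0.0677 with those libraries summed) and CCL20 in 1. CXCL2 gained a call with no filter, without clone 6 replicate 2, and with the replicate block. The genes called, 2822 in all, were 4274 with no filter, 1528 with clone 2 and clone 6 replicate 1 summed, 5470 with clone 6 replicate 2 as the only edited library, and 500 to 5971 with 1 library left out. Chemokines called lower (6) ranged from 3 to 7 with 1 library left out, those of clone 2 (4) from 3 to 7, those of clone 6 (4) from 4 to 7, and those called between the clones (0) from 0 to 4. The cause was not tested. Replicate numbers are shared by wild type and clone 6 only, and their R1 minus R2 differences had a correlation of 0.17 across 16471 genes, so the numbers are not taken as pairs. With the replicate block 4499 genes were called in either direction between edited and wild-type libraries, and CXCL2 had -2.07 (adjusted p = 0.0244). Of 33 other named genes, 427 values were recomputed, of which 365 kept their side, 44 lost a call, 14 gained one and 4 changed direction. With clone 6 replicate 2 as the only edited library these were IL1A (0.32), IL6 (0.53) and NFKBIZ (0.44), and CEBPB ranged from -0.42 to 0.91 with 1 library left out, the lowest being without clone 6 replicate 2. CXCL3, CXCL6 and CCL20 rest on 0 to 8 reads in clone 2 and clone 6 replicate 1.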
